A study of Mus musculus with 8 samples.

Results

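The genes described here are 8 known targets of the nuclear receptor PPAR-alpha whose products act outside mitochondrial beta-oxidation: Fgf21, Creb3l3, Pdk4, Acot1, Vnn1, Ehhadh, Acaa1b and Pex11a. They are a list of names that uses no measured value as a rule, drawn up with earlier results of these data known, out of 16593 genes with a probe on the array. They had 11 probes, and 7 of the 8 genes were among the 8945 genes bright enough to test. Vnn1 was too dim.

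The samples were livers of female C57/BL6 mice, whose total RNA was read on 8 Illumina bead arrays. Every sample was collected after a 6 h fast. The arrays covered each combination of diet (21% or 5% corn oil by weight), age (day 456, D456, or day 90, D90) and generation (F3 or F1), with 1 array and so no replicate per combination and 4 arrays per level of a factor. Whether RNA on an array came from 1 animal or from several, and at which stage of life or in which generation the diets were eaten, is not in the labels. Arrays are named by their 3 labels, so that F3 21% D456 is the F3 sample of the 21% diet at day 456.

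PPAR-alpha is a fatty acid sensor of the liver that is most active in fasting, when fatty acids arrive from adipose tissue. Together with RXR it binds paired copies of a short DNA core motif in its target genes and switches on fat oxidation and ketone body production. Beyond the mitochondrial enzymes it drives the peroxisomal pathway, which shortens long and dicarboxylic fatty acids, and genes that adjust fuel choice and signal the fasted state to other tissues.

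By role the 8 genes fall into 4 groups. Fgf21 (gene ID 56636) encodes a hormone that the fasted liver releases, and Creb3l3 (208677) encodes CREB-H, a membrane-bound transcription factor of hepatocytes that acts with PPAR-alpha on Fgf21. Pdk4 (27273) encodes a kinase that inhibits pyruvate dehydrogenase and so spares glucose. Acot1 (26897) encodes a cytosolic thioesterase that splits fatty acyl-CoA into fatty acid and coenzyme A, and Vnn1 encodes a pantetheinase of coenzyme A breakdown. Ehhadh (74147) encodes the bifunctional enzyme of the middle steps of peroxisomal beta-oxidation, Acaa1b (235674) encodes a thiolase of its last step, and Pex11a (18631) encodes a membrane protein that divides peroxisomes.

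Promoter sequences, from 250 bases before to 50 bases after the start site, were available for 7 of the 8 genes (RefSeq, build GRCm38.p6). Those of 4 genes that the results below turn on are shown, the hormone, its transcription factor, the thioesterase and the peroxisomal enzyme, to show which PPAR core motifs lie next to their start sites. Each is written 5′ to 3′ along the gene's strand, and capitals mark each match to the loose core motif AGGNCA on either strand. The windows are chr7:45615441-45615740 (minus strand) for Fgf21, chr10:81092542-81092841 (minus strand) for Creb3l3, chr12:84009252-84009551 (plus strand) for Acot1 and chr16:21787785-21788084 (minus strand) for Ehhadh.
Fgf21: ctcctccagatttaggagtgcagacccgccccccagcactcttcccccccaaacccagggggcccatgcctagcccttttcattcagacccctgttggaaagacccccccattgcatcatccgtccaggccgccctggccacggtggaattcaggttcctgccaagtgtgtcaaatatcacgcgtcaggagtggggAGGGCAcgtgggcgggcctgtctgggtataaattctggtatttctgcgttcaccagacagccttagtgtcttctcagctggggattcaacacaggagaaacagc
Creb3l3: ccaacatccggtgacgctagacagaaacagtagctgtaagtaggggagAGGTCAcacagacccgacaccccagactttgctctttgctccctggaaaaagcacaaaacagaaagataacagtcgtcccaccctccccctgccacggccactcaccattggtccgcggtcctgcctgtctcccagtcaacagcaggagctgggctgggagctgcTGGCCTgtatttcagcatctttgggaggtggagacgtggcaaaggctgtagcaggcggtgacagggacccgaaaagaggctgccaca
Acot1: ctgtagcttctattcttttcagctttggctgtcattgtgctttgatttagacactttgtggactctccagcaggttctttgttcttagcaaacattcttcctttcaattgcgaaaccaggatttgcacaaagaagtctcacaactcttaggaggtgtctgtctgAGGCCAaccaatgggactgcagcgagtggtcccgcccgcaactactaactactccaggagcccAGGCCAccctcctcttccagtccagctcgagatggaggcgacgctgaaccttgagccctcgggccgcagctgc
Ehhadh: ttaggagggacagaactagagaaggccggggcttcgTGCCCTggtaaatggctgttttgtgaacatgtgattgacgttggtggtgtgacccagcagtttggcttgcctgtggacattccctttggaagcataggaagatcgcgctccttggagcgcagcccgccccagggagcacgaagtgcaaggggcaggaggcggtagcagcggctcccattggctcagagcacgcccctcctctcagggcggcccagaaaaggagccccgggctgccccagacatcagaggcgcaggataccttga

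The 7 genes had 8 windows, since Creb3l3 has a second start site (window chr10:81098823-81099122, minus strand), whose window held no match to any of the motifs and is not shown. The strict core motif AGGTCA was found in 1 of the 8 windows, the Creb3l3 one shown above, where it began at position -202 from the start site, and in 16.2% of 32544 mouse promoter windows. The loose form AGGNCA, which includes every strict match, was found in 7 of the 8, 1 for each gene, and in 57.3% of all windows. In Fgf21 it began at position -54, in Ehhadh at -214, and in Acot1 at -86 and -23. A direct repeat of the loose form with 1 base between the copies (AGGNCANAGGNCA), the arrangement that PPAR-alpha and RXR bind, was in 0 of the 8 windows and in 0.384% of all windows, both strands searched. A match describes letters only, and a window without one says nothing of sites farther away.

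Values are log2 intensities, from arrays that had been normalised to each other before deposition (mean intensity 457 on each array). No background had been subtracted, so differences of dim genes are understated. Differences were fitted across all 8945 genes by limma with diet, age and generation as additive terms, and a gene passed at an adjusted p under 0.05. With no replicates of a combination, p-values reflect the scatter among these 8 arrays and not among animals.

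Some arrays stood apart. Hepatocyte markers (15 of 16 measured) had a median log2 intensity of 12.45 to 13.31 per array, with 13 to 15 of them above the bound of 6.95 and Tat and Fgb close to it on all arrays. Pancreas acinar markers (26 of 30 measured) had a summed intensity of 29118 in F3 5% D456, 19042 in F1 5% D456 and 11217 in F3 5% D90, against 3585 to 4264 in the other 5 arrays. Skeletal muscle markers (17 of 18 measured) had a median of 8.42 in F1 5% D90 and 7.93 in F3 5% D456, against 6.90 to 7.13 elsewhere. Adipose, bile duct and kidney markers stayed at medians of 6.83 to 7.03. F1 5% D90 also correlated less with the other arrays (mean r 0.982, against 0.989 to 0.993). The array labelled F1 21% D90 carried signs that go against its female label, looked at after other values had been seen. The Y-linked Eif2s3y was read there at an intensity of 165.7 (109.2 to 113.1 on the other 7), and Cyp4a12a, a fatty acid hydroxylase mainly of male mouse liver, had a log2 intensity of 9.11 on it and 6.87 to 6.92 on the others. Age, generation and diet differences with some of these arrays left out are given below.

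The spread of the genes over the 8 arrays was large for 5 of them. The standard deviation of log2 intensity was 0.38 for Acot1, 0.36 for Pex11a, 0.32 for Fgf21, 0.27 for Ehhadh and 0.26 for Pdk4, against a median of 0.108 over all genes tested. Creb3l3 (0.15) and Acaa1b (0.11) varied less. The SD of Acot1 exceeded that of 96.7% of the genes tested and that of Acaa1b exceeded that of 50.9%. Vnn1 stood at 6.81 to 6.85 on all arrays, below the bound of 6.95 that separates the dimmer from the brighter probes, so its probe gives no usable level. Its relative Vnn3 was read at 11.14 to 11.78.

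**Figure D1:**
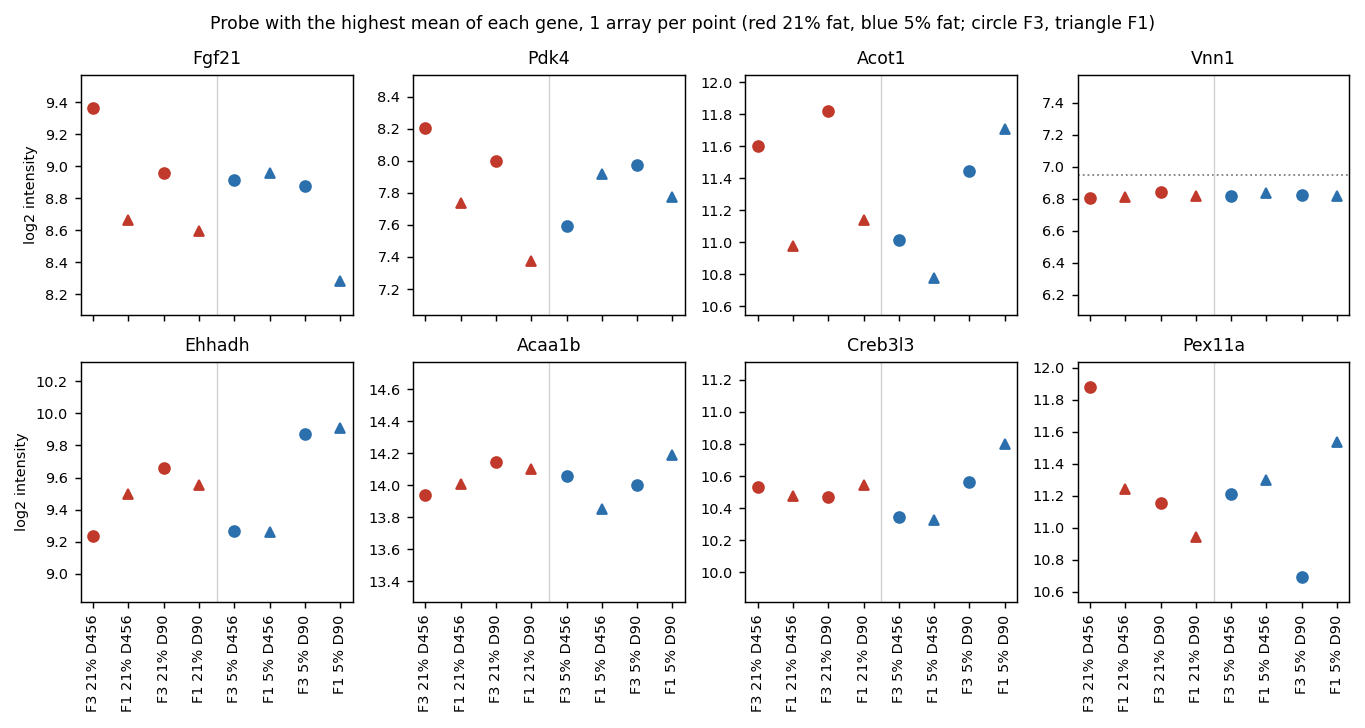
Log2 intensity of each of the 8 genes (1 panel per gene) on each array, with the 21% diet in red to the left of the 5% diet in blue, F3 as circles and F1 as triangles; the dotted line in the Vnn1 panel is the bound of 6.95. Fgf21 and Pex11a are brightest on F3 21% D456 (9.36 and 11.88), and Ehhadh is brightest on the 2 D90 arrays of the 5% diet (9.87 and 9.91).

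None of the 7 genes tested passed for age, diet or generation. Before that adjustment, 3 of the 7 had a p under 0.05 by age, 1 by generation and 0 by diet. Over all 8945 genes these shares were 12.2% by age, 2.14% by generation and 3.22% by diet.

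Age gave the clearest pattern among the genes. At D456 Ehhadh and Acot1 were read lower than at D90 in each of the 4 matched pairs of arrays, pairs that share diet and generation, while Fgf21 was read higher in each of the 4. None of these differences passed over all genes. Of the 8945 genes, 9 (0.101%) passed for age, against 0 of the 7 genes here. A p under 0.05 before adjustment was found for 12.2% of all genes and for 3 of the 7 here (Ehhadh, Acot1 and Fgf21), and the same sign in 4 of 4 pairs for 19.4% and again for 3 of the 7.

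Ehhadh stood at 9.24 (F3 21%), 9.50 (F1 21%), 9.27 (F3 5%) and 9.26 (F1 5%) in the D456 arrays, against 9.66, 9.56, 9.87 and 9.91 in the D90 arrays of the same diets and generations. The age groups did not overlap, and the gap between pairs was widest in the 5% arrays. The difference was -0.43 ± 0.11 (SE, n = 4 per age, 95% interval -0.70 to -0.17), a fold of 0.74 and an adjusted p of 0.223. Ehhadh was the 1 gene of the 7 without overlap by age, as were 8.11% of all genes. It passed when arrays were weighted by quality (adjusted p = 0.0299), a fit in which 2.62% of all genes passed. It also passed when the 3 pairwise interactions were added together (adjusted p = 0.0489), a fit with 1 residual degree of freedom in which 5.15% of all genes passed. Without the 3 arrays that held pancreas transcripts, which also leaves 1 residual degree of freedom, its difference was -0.24 (adjusted p = 1).

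The other peroxisomal genes differed less by age. Acaa1b stood at 13.94 (F3 21%), 14.01 (F1 21%), 14.06 (F3 5%) and 13.85 (F1 5%) at D456, against 14.14, 14.10, 14.00 and 14.19 at D90. It was lower at D456 in 3 of 4 pairs and the groups overlapped, with a difference of -0.14 ± 0.08 (adjusted p = 0.45). Pex11a stood at 11.88 (F3 21%), 11.25 (F1 21%), 11.21 (F3 5%) and 11.30 (F1 5%) at D456, against 11.16, 10.94, 10.70 and 11.54 at D90. It was higher at D456 in every pair but that of F1 5%, with a difference of +0.33 ± 0.21 (adjusted p = 0.498). The other probes of Pex11a gave +0.34 and +0.30. The Pex11a difference was +0.12 without F3 21% D456, +0.17 without F3 5% D90, +0.58 without F1 5% D90 and +0.51 without the 3 arrays with pancreas transcripts.

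Acot1 stood at 11.60 (F3 21%), 10.98 (F1 21%), 11.01 (F3 5%) and 10.77 (F1 5%) at D456, against 11.82, 11.14, 11.44 and 11.70 at D90. The ranges overlapped, because the F3 21% array at D456 was brighter than 2 of the D90 arrays. The difference was -0.44 ± 0.17 (95% interval -0.83 to -0.04) and an adjusted p of 0.377. It was -0.23 without F1 5% D90 and -0.19 without the 3 arrays with pancreas transcripts, and it passed in the fit with the 3 pairwise interactions (adjusted p = 0.035). A dimmer probe for Acot1 did not follow the first over the arrays (r = 0.08, n = 8) and gave an age difference of +0.03. Acot1 lies in a family of near-identical thioesterase genes, and probe sequences were not used here, so it is uncertain which family member each probe reads. Of the relatives, Acot3 was read higher at D456 (+0.57 ± 0.12, adjusted p = 0.14, higher in 4 of 4 pairs), Acot4 gave +0.20 ± 0.14 and Acot2 gave -0.01 ± 0.03.

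Fgf21 stood at 9.36 (F3 21%), 8.66 (F1 21%), 8.91 (F3 5%) and 8.96 (F1 5%) at D456, against 8.96, 8.59, 8.87 and 8.28 at D90. The ages overlapped widely, and the pairs of F3 5% and F1 21% hardly differed. The difference was +0.30 ± 0.13 (95% interval 0.0037 to 0.59) and an adjusted p of 0.405, and it was +0.17 without F1 5% D456 and +0.24 without the 3 arrays with pancreas transcripts. Creb3l3 stood at 10.53 (F3 21%), 10.47 (F1 21%), 10.34 (F3 5%) and 10.33 (F1 5%) at D456, against 10.47, 10.54, 10.57 and 10.80 at D90. It was lower at D456 in 3 of 4 pairs, with F1 5% D90 the brightest array, and differed by -0.18 ± 0.11 (adjusted p = 0.484). That difference was -0.09 without F1 5% D90 and 0.00 without the 3 arrays with pancreas transcripts. Pdk4 gave +0.08 ± 0.16 (adjusted p = 0.815), and +0.28 without those 3 arrays. Without F1 21% D90, whose signals go against its label, the age differences were -0.52 for Ehhadh, -0.59 for Acot1 and +0.32 for Fgf21.

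Some markers of other cells of the liver moved with age in the same arrays. The summed intensity of macrophage and Kupffer cell markers (12 of 14 measured) was 11205 to 12834 at D456, against 6242 to 9508 at D90. The sum was carried by Lyz2, Vsig4, C1qb and C1qc, while Adgre1, Clec4f, Marco and Timd4 of the same list overlapped between the ages. The medians of the list overlapped too (8.75 to 9.02 at D456, against 8.66 to 8.92 at D90). The summed intensity of red blood cell markers (5 of 10 measured) was 25206 to 29882 at D456, against 16673 to 21856 at D90. That of hepatocyte markers was 142739 to 149433 at D456, against 148708 to 160568 at D90. Their part in the age differences was not tested, and in bulk liver fewer cells of a type and less RNA per cell cannot be told apart.

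**Figure D2:**
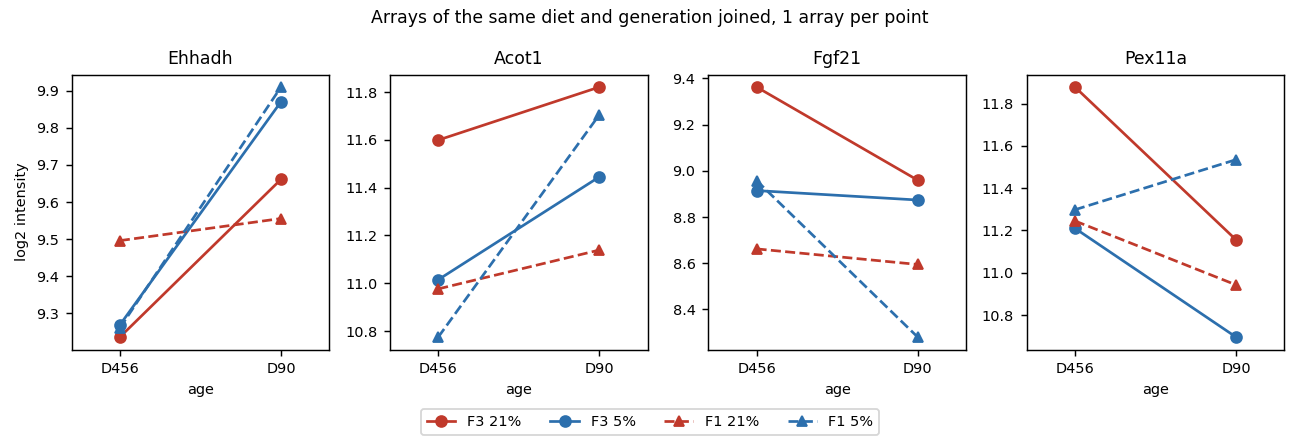
Log2 intensity of Ehhadh, Acot1, Fgf21 and Pex11a at D456 (left) and D90 (right), with lines joining the arrays of the same diet and generation (red 21%, blue 5%; solid with circles F3, dashed with triangles F1). All 4 lines of Ehhadh and Acot1 lie lower at D456, all 4 of Fgf21 lie higher at D456, and 1 line of Pex11a (F1 5%) runs against the other 3.

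Between generations the hormone gene had the largest difference of the 7, each read from its brightest probe on all 8 arrays. Fgf21 was read at 8.87 to 9.36 in F3, with F3 21% D456 highest, and at 8.28 to 8.96 in F1, with F1 5% D90 lowest. F3 was higher in 3 of 4 pairs, and in the fourth, 5% D456, F3 stood at 8.91 against 8.96 in F1. The difference was +0.40 ± 0.13 (95% interval 0.11 to 0.70, fold 1.32) and an adjusted p of 0.988. Leaving out single arrays gave +0.31 to +0.53, and leaving out the 3 arrays with pancreas transcripts +0.53.

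Acot1 gave +0.32 ± 0.17 and Pdk4 +0.24 ± 0.16 by generation, both higher in F3 in 3 of 4 pairs (adjusted p = 0.988 each). Without F1 21% D90 these were +0.17 for Acot1 and +0.09 for Pdk4, and Fgf21 gave +0.43. Acot1 was +0.18 without F3 21% D456 and +0.53 without F1 5% D90, and Pdk4 was +0.13 without F3 21% D456 and +0.43 without F3 5% D456. Without the 3 arrays with pancreas transcripts Acot1 was +0.65, Pdk4 +0.54 and Pex11a +0.42 (adjusted p = 1 each). The dimmer Acot1 probe gave +0.40 ± 0.16, as large as Fgf21. Its p before adjustment was 0.0402 in a limma fit over all kept probes (adjusted p = 0.974). Creb3l3, Ehhadh, Pex11a and Acaa1b lay between -0.06 and 0.00, with standard errors of 0.08 to 0.21. Over all genes, 0% passed for generation and 2.14% had a p under 0.05 before adjustment, against 0 and 1 of the 7 (Fgf21). The same sign in 4 of 4 pairs was seen for 10.1% of genes and 0 of the 7, and groups without overlap for 1.14% and 0 of the 7.

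Between diets no gene of the 7 differed beyond its spread. Acot1 gave +0.15 ± 0.17 (95% interval -0.25 to 0.54), Fgf21 +0.14 ± 0.13 (-0.16 to 0.43) and Pex11a +0.12 ± 0.21 (-0.36 to 0.60) for the 21% against the 5% diet. Acaa1b (+0.02 ± 0.08), Pdk4 (+0.01 ± 0.16), Creb3l3 (0.00 ± 0.11) and Ehhadh (-0.09 ± 0.11) lay near 0, and the adjusted p was 1 for each. With single arrays left out Acot1 ranged from +0.013 (without F3 21% D456) to +0.36 (without F1 5% D90), and Fgf21 from +0.042 (without F3 5% D456) to +0.27 (without F1 5% D456). Without F1 21% D90 the diet differences were +0.30 for Acot1, +0.11 for Fgf21, +0.23 for Pex11a and +0.16 for Pdk4. Acaa1b was then +0.03, Creb3l3 +0.04 and Ehhadh -0.0043. Over all genes 0% passed for diet and 3.22% had a p under 0.05 before adjustment. The same sign in 4 of 4 pairs was seen for 10.1% of genes and groups without overlap for 1.84%, and each of these counts was 0 of the 7 here.

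The summed signal of the pancreas markers was raised in 3 of the 4 arrays of the 5% diet and in none of the 21% diet. Single markers were read on the 21% diet too, Cela1 at 9.34 to 10.10 and Reg1 at 8.33 in F3 21% D456. Without those 3 arrays the 5% diet is F1 5% D90 alone. Acot1 was then -0.55 (adjusted p = 0.278), Pex11a -0.70 (0.259) and Pdk4 -0.36 (0.329), the opposite sign to the fit of all 8 arrays, while Fgf21 was +0.23. Creb3l3 was -0.29 and Ehhadh -0.26.

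**Figure D3:**
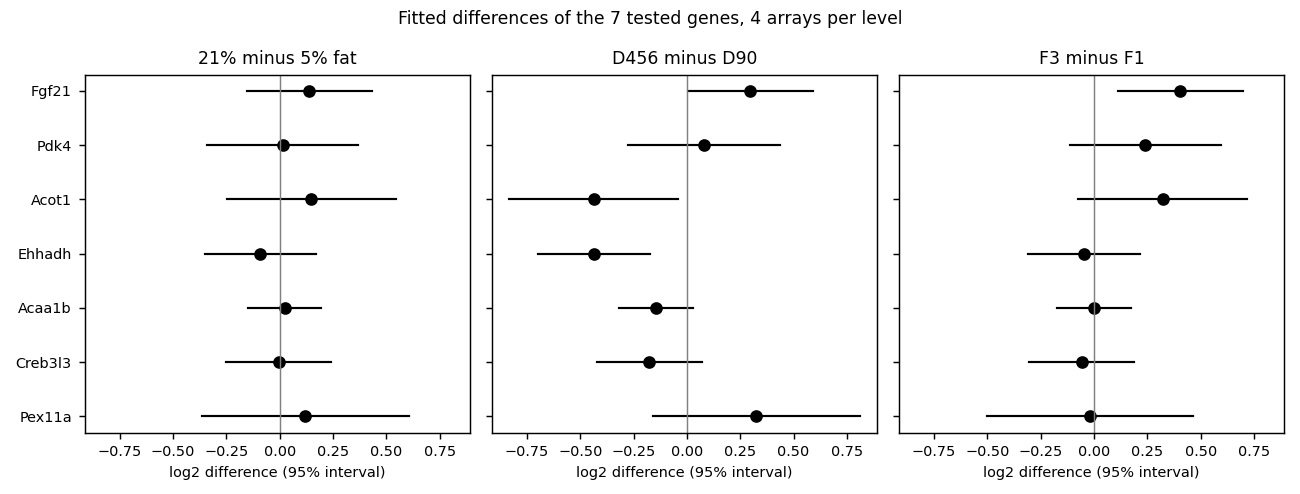
Fitted log2 differences of the 7 tested genes for diet (21% minus 5%), age (D456 minus D90) and generation (F3 minus F1), each a point with its 95% interval from 4 arrays per level. Intervals that leave 0 are those of Ehhadh, Acot1 and Fgf21 by age and of Fgf21 by generation, before adjustment over all genes.

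The mean diet differences of Pex11a, Acot1 and Pdk4 were above 0 in F3 and below 0 in F1, as was, by less, that of Creb3l3 (+0.05 in F3 and -0.06 in F1). In F3 the 21% diet gave higher readings than the 5% diet in both age pairs for Pex11a, Acot1 and Pdk4. In F1 it gave lower ones in both pairs for Pex11a and Pdk4 and in the D90 pair for Acot1. No interaction passed. Both F3 arrays of the 5% diet held pancreas transcripts, and 1 of the F1 arrays did, so these transcripts are spread unevenly over the comparison. With the pancreas marker level as a covariate the differences between generations given below became +0.60 for Pex11a, +0.44 for Pdk4 and +0.34 for Acot1 (adjusted p = 1 each).

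Pex11a differed by diet by +0.67 (D456) and +0.46 (D90) in F3, against -0.05 (D456) and -0.59 (D90) in F1. The difference between generations was +0.89 ± 0.32 and an adjusted p of 1. It was +0.51 without F1 5% D90, the brightest F1 array for this gene. The other probes gave +0.93 and +0.41.

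Pdk4 stood at 8.20 (F3 21%), 7.74 (F1 21%), 7.59 (F3 5%) and 7.92 (F1 5%) at D456, and at 8.001, 7.38, 7.97 and 7.78 at D90. The lowest array was F1 21% D90. The arrays with muscle transcripts, F1 5% D90 and F3 5% D456, stood at 7.78 and 7.59. What muscle transcripts add to the Pdk4 readings was not tested. Its diet difference was +0.61 (D456) and +0.03 (D90) in F3, against -0.18 (D456) and -0.40 (D90) in F1. The difference between generations was +0.61 ± 0.25 (adjusted p = 1). It was +0.30 without F3 5% D456, +0.42 without F1 21% D90 and +0.92 without F3 5% D90.

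Acot1 differed by diet by +0.58 (D456) and +0.38 (D90) in F3, against +0.20 (D456) and -0.57 (D90) in F1. The difference between generations was +0.66 ± 0.28 (adjusted p = 1), +0.33 without F1 5% D90, and -0.03 for the dimmer probe. Fgf21 (+0.26), Creb3l3 (+0.11), Acaa1b (-0.02) and Ehhadh (-0.06) gave smaller values. Over all 8945 genes, 0% passed for this interaction and 1.17% had a p under 0.05 before adjustment, as had 3 of the 7 here. For diet by age and for age by generation 0% of all genes and 0 of the 7 passed.

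**Figure D4:**
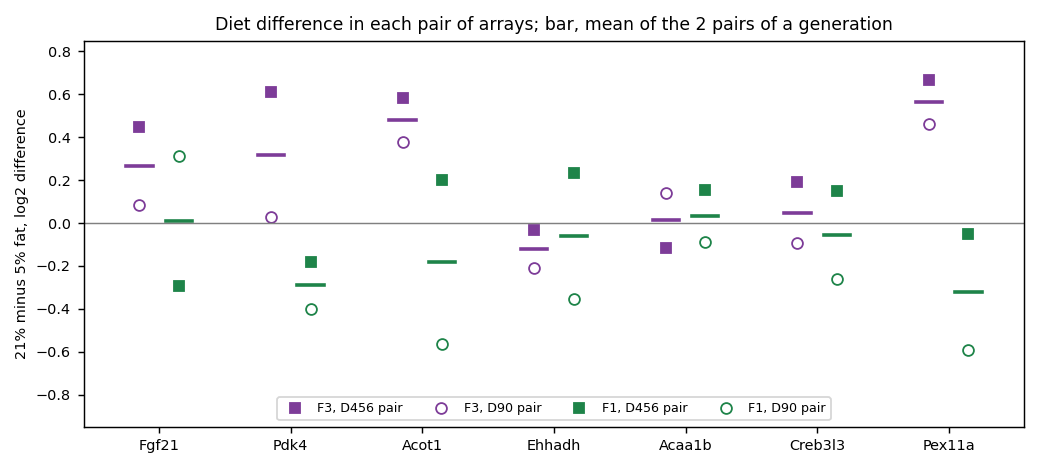
Log2 difference of the 21% minus the 5% diet in each pair of arrays of the same age, with F3 (purple) left of F1 (green), filled squares for the D456 pair, open circles for the D90 pair and a bar for the mean of the 2 pairs. The F3 means of Pex11a (+0.56), Acot1 (+0.48) and Pdk4 (+0.32) lie above 0 and their F1 means (-0.32, -0.18 and -0.29) below it.

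The genes did not vary as 1 group over the arrays. Ehhadh, Acaa1b, Creb3l3 and Acot1 varied together, with pairwise correlations of 0.56 to 0.76 over the 8 arrays, highest for Ehhadh with Creb3l3. Fgf21 ran against 3 of them (r = -0.65 with Ehhadh, -0.63 with Acaa1b and -0.57 with Creb3l3) and with Pdk4 (r = 0.64). Pex11a correlated by at most 0.43 in size with any of the others. F1 5% D90, the array that stood apart, was the brightest for Ehhadh (9.91), Acaa1b (14.19) and Creb3l3 (10.80). For Acot1 (11.70) only F3 21% D90 was brighter (11.82), and for Fgf21 it was the dimmest (8.28). The correlations therefore lean on this array, and they were not computed without it. The 8 arrays share the factors of the design and the tissue differences above, so these values are a description.

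**Figure D5:**
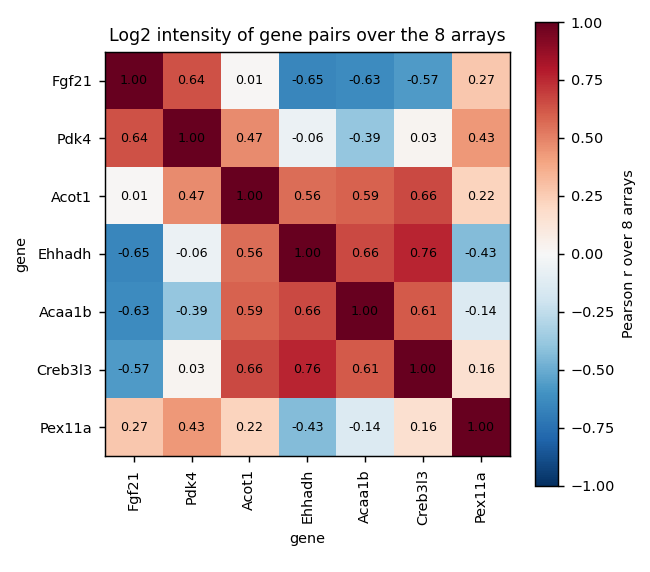
Pearson correlation of log2 intensity between each 2 of the 7 tested genes over the 8 arrays, red for positive and blue for negative. Ehhadh, Acaa1b, Creb3l3 and Acot1 form a block of 0.56 to 0.76, and Fgf21 is negative with Ehhadh, Acaa1b and Creb3l3.

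For each gene the 2 other genes with the highest correlation over the 8 arrays were looked up. They were Alg14 (r = 0.99) and Exoc3l4 (0.985) for Fgf21, Smpd1 (0.989) and Mospd3 (0.987) for Creb3l3, and Utp23 (0.969) and Zfp609 (0.961) for Pdk4. They were Prmt3 (0.952) and Exd2 (0.941) for Acot1, Hsd17b12 (0.989) and Efna1 (0.983) for Ehhadh, Nsun4 (0.99) and Notum (0.952) for Acaa1b, and Rxrg (0.966) and Slc16a13 (0.953) for Pex11a. With 8 arrays and 8945 genes, high values are met for many pairs, and Exoc3l4, Utp23 and Zfp609 ranged over about 0.1 each, near background.

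In the pathways around the 8 genes, no gene of the 9 lists passed for any factor. Their diet differences come from all 8 arrays, and 3 of the 4 arrays of the 5% diet held pancreas transcripts. Diet and that tissue difference are not separated in the list values. Decr2, Scp2, Acadl, Etfdh, Pdhb, Ppcs, Apoc2 and Atf4, named below, had their lowest reading on F1 5% D90, the array that stood apart, and each of their age differences is also given without it. The 7 genes themselves had a median difference of +0.02 by diet (5 higher), -0.14 by age (3 higher) and 0.00 by generation (3 higher). Over all 8945 genes the medians were 0.00 (53.0% higher), -0.02 (40.6% higher) and -0.01 (43.6% higher).

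Of the receptor and its cofactors, 13 of 18 were tested. By age 5 were higher and 8 lower at D456 (median -0.07). Ppara, which encodes PPAR-alpha itself, was read higher at D456 in 4 of 4 pairs (+0.24 ± 0.13, adjusted p = 0.456), and Pparg, its adipose relative, likewise (+0.41 ± 0.08, adjusted p = 0.139). Ep300, a histone acetylase, and Rxrb, a partner receptor, were at -0.25 each. The medians by diet and generation were 0.00 and -0.04, with Ppargc1b, a coactivator, at -0.17 by diet. By generation Ep300 was at -0.25, and Pparg at +0.22 ± 0.08 (adjusted p = 0.988), higher in F3 in 4 of 4 pairs. Rxra, another partner receptor, gave values between -0.10 and +0.05 for the 3 factors.

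Of the peroxisomal list 21 of 27 genes were tested, with 11 higher by age (median +0.03), 14 higher by diet (+0.03) and 7 higher by generation (-0.05). Decr2, a peroxisomal reductase of unsaturated fatty acids, was at +0.64 ± 0.29 by age (adjusted p = 0.418; +0.31 without F1 5% D90), Scp2, a sterol carrier with thiolase activity, at +0.35 ± 0.19 (0.454; +0.11 without it) and Slc27a2, a fatty acid transporter and very long-chain acyl-CoA synthetase, at -0.27 ± 0.08 (0.293). Hsd17b4, the second bifunctional enzyme beside Ehhadh, was at +0.31 ± 0.12 by diet (adjusted p = 1) and -0.10 by age. Acaa1a, a near copy of Acaa1b, so that it is uncertain which of them each probe reads, was at -0.19 ± 0.10 by generation, lower in F3 in 4 of 4 pairs (adjusted p = 0.988). Scp2 was at +0.39 ± 0.19 by generation, and +0.15 without F1 5% D90.

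Of the microsomal omega-oxidation genes, which make the dicarboxylic acids that peroxisomes shorten, 7 of 11 were tested. By age 1 was higher and 6 lower (median -0.33). Cyp4f14 was the nearest to passing, at 11.50 to 11.81 at D456 against 12.16 to 12.37 at D90 (-0.62 ± 0.08, adjusted p = 0.05003), and Cyp4f15 (-0.37) and Cyp4f13 (-0.33) were lower in 4 of 4 pairs too. By diet 6 of 7 were higher (median +0.15), with Cyp4a14, a known PPAR-alpha target, at +0.33 ± 0.19 (adjusted p = 1). Cyp4a12a, bright on F1 21% D90 alone, was at +0.56 by diet and -0.56 by age. By generation 3 of 7 were higher (-0.03).

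Of the lipid transport and storage targets 25 of 29 were tested, with 12 higher by age (median 0.00), 9 by diet (-0.02) and 17 by generation (+0.03). The lipid droplet proteins Plin4 (+0.68 ± 0.19, adjusted p = 0.254) and Plin2 (+0.54 ± 0.17, 0.294) were read higher at D456 in 4 of 4 pairs, and Lpin2, a phosphatidate phosphatase (-0.38 ± 0.10, 0.224), and Gpd1, a glycerol phosphate dehydrogenase (-0.44 ± 0.16, 0.344), lower in 4 of 4. Acsl5, an acyl-CoA synthetase, was at -0.23 by diet and Lpl, lipoprotein lipase, at +0.29 by generation. Of the mitochondrial targets 15 of 21 were tested, with 14 higher by diet (median +0.12), 6 by age (-0.01) and 9 by generation (+0.02). Of those 14, Acadl was at +0.19 by diet but -0.18 without F1 5% D90, and Etfdh at +0.31 but +0.10. Acadm, the medium-chain acyl-CoA dehydrogenase, was higher on the 21% diet in 4 of 4 pairs (+0.27 ± 0.08, adjusted p = 1). Acadl, the long-chain enzyme, was at +0.73 ± 0.29 by age (adjusted p = 0.379; +0.36 without F1 5% D90), and Etfdh, which passes electrons from these enzymes to ubiquinone, was at +0.31 ± 0.17 (+0.10 without it).

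Of the receptors and regulators of FGF21, 10 of 15 were tested. By age 3 were higher (median -0.04), by diet 3 (-0.04) and by generation 5 (+0.01). Klb, the coreceptor of FGF21, lay between -0.07 and +0.10 for the 3 factors, and Nr1d1, a clock repressor, was at -0.25 ± 0.11 by diet and -0.25 ± 0.11 by age. Atf4, a stress transcription factor that acts on Fgf21, was at +0.25 ± 0.20 by generation and +0.28 ± 0.20 by age (+0.0046 and +0.03 without F1 5% D90), and Mlxipl, the carbohydrate-sensing factor ChREBP, was at -0.27 ± 0.17 by age.

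Of the CREB3L3 targets and the proteases that release it 9 of 10 were tested, with 3 higher by age (median -0.12), 5 by diet (+0.05) and 4 by generation (-0.02). Pck1, the gluconeogenic carboxykinase, was lower at D456 in 4 of 4 pairs (-0.45 ± 0.08, adjusted p = 0.0951) and lower on the 21% diet in 4 of 4 (-0.24 ± 0.08, adjusted p = 1). Apoa5, an activator of triglyceride clearance, and Hamp, the iron hormone hepcidin, were at -0.27 ± 0.10 each by age (adjusted p = 0.363 and 0.358). Apoc2, a lipoprotein lipase activator, was at +0.43 ± 0.20 by age and +0.39 ± 0.20 by generation (+0.21 and +0.17 without F1 5% D90).

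Of pyruvate dehydrogenase with its kinases and phosphatases 7 of 13 were tested, with 4 higher by age (median +0.14), 2 by diet (-0.06) and 1 by generation (-0.04). Pdk1 was lower on the 21% diet in 4 of 4 pairs (-0.35 ± 0.11, adjusted p = 1), and Pdk2 lower in F3 in 4 of 4 (-0.27 ± 0.09, adjusted p = 0.988). Pdk4 itself gave +0.01 and +0.24 for the same factors. Pdhb, a subunit of the enzyme, was at +0.45 ± 0.22 by age (+0.18 without F1 5% D90), and Pdk1 at +0.24 ± 0.11. Of coenzyme A synthesis and breakdown 15 of 17 were tested, with 7 higher by age (median 0.00), 6 by diet (-0.02) and 4 by generation (-0.08). Vnn3 was lower in F3 in 4 of 4 pairs (-0.21 ± 0.12, adjusted p = 0.988), and Slc25a42, the mitochondrial coenzyme A carrier, was at -0.31 ± 0.17 by generation and -0.33 ± 0.17 by age. Ppcs, a synthetase of coenzyme A, was at +0.38 ± 0.20 by age (+0.16 without F1 5% D90).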

How the data were processed

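Each of the 8 liver samples was read on 1 Illumina bead array. Extraction used Trizol, quality was controlled on an Agilent Bioanalyser and the label was biotin, per the labels' protocols. What was deposited is linear intensity, 1 value per probe and array. The method of normalisation by the authors was not given in the sources used here. Deposited values began at 101.4, array medians were 123.2 to 123.5, and sorted values differed between arrays by at most 7.5%, which shows scaling between arrays and no subtraction of background. Detection p-values were left out.

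Values were log2 transformed. Probe symbols came from the platform's annotation table (23978 of 25697 probes with 1 symbol, 1719 with none, 0 with several) and were checked against RefSeq genes of GRCm38.p6. Probes brighter on average than 6.95, the median over all probe means on the log2 scale, were kept, and each gene was read from its probe with the highest mean. Differences were fitted with limma 3.58.1 (R 4.3.3, statmod 1.5.0), diet, age and generation additive, 4 residual and 4.36 prior degrees of freedom, intensity trend, Benjamini-Hochberg adjustment over 8945 genes, two-sided. Each interaction was added alone (leaving 3 residual degrees), and as an alternative all 3 together (1 residual degree). Since combinations had 1 array each, any interaction adds to the error of the additive model. The number of arrays limits the precision (median standard error 0.084). Matched pairs share 2 of the 3 factors and are not the same animals.

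The genes, lists and tests were chosen with earlier results of these data known. Named genes were the 8 genes, the list genes with the largest differences by age, single ones among the 4 largest by diet and generation, paralogs, and the 2 genes most correlated with each. Other scalings, filters, probes, variance models, designs and covariates and left-out arrays were tried. Promoters were searched on both strands with Python 3.11.15. Figures were drawn with matplotlib 3.10.9.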

Additional observations from a re-analysis of the deposited data

Results flagged for a closer look

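In each group of 4 arrays of 1 diet, age or generation, the reading farthest from the rest was compared with the range of the group (42 groups for the 7 genes). In 3 of them, 1 array lay apart by more than Dixon's 95% critical value for 4 samples, and chance alone gives this in about 1 in 20 groups.

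Fgf21 stood at 8.28 in F1 5% D90, against 8.87 to 8.96 in the other 3 arrays of the 5% diet. This is the array of the 5% diet with muscle transcripts and without a raised sum of pancreas markers. Ehhadh stood at 9.50 in F1 21% D456, against 9.24 to 9.27 in the other 3 arrays at D456, and still below the lowest D90 array (9.56). Pex11a stood at 11.88 in F3 21% D456, against 11.21 to 11.30 in the other 3 arrays at D456, and the second brightest probe of this gene was highest there too (11.51).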

How the results depend on the processing

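No paired analysis was possible because the labels give no replicate numbers that could pair animals, with 1 array per combination (the matched pairs counted above share 2 factors only). Under the alternatives run, 0 genes of the 7 passed for diet and for generation. For age 1 passed with array weights (Ehhadh), as did 2.62% of all genes, and 2 passed with pairwise interactions in the model (Acot1 and Ehhadh), as did 5.15% of all genes. Of 555 values of single genes under the alternatives, 502 kept their direction and their side of the threshold, and 50 changed sign. The causes of the changes of sign were not tested.

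By diet, the values with the other sign were as follows. With the pancreas markers as covariate Pdk4 was -0.40, Acot1 -0.46, Acaa1b -0.011 and Pex11a -0.53, and without the 3 arrays with pancreas transcripts they were -0.36, -0.55, -0.061 and -0.70. With the muscle markers as covariate Fgf21 was -0.014, Pdk4 -0.046 and Creb3l3 +0.077. Background subtraction gave -0.0096 for Pdk4, and array weights +0.034 for Creb3l3. By age the dimmer Acot1 probe gave +0.028. By generation, with the pancreas markers as covariate, Ehhadh was +0.029, Acaa1b +0.01, Creb3l3 +0.039 and Pex11a +0.20. With the muscle markers Acaa1b was +0.019 and Pex11a +0.031, and with array weights Acaa1b was +0.033, Creb3l3 +0.0078 and Pex11a +0.071. Pex11a was also +0.015 as the mean of its probes, +0.039 and +0.024 for its other probes, and +0.42 without the 3 arrays. The diet by generation value of Acot1 was -0.032 for the dimmer probe.

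Leaving out 1 array at a time, the diet difference ranged from 0.013 to 0.36 for Acot1, 0.042 to 0.27 for Fgf21, -0.19 to -0.0043 for Ehhadh, -0.18 to 0.16 for Pdk4, -0.028 to 0.075 for Acaa1b, -0.077 to 0.084 for Creb3l3 and -0.090 to 0.37 for Pex11a. The age difference of Pdk4 ranged from -0.065 to 0.27. The generation difference ranged from -0.13 to 0.055 for Ehhadh, -0.054 to 0.046 for Acaa1b, -0.13 to 0.031 for Creb3l3 and -0.23 to 0.23 for Pex11a. The interactions were not run without the 3 arrays, which leave too few for the model. Vnn1 lies at background, so its probe sets no limit on a difference.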
